A study of Mus musculus with 22 samples.

Results

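The genes described here carry the symbols of nuclear subunits of the mitochondrial respiratory chain and of the ATP synthase that it drives. They were chosen by symbol: Nduf genes for complex I, Sdha to Sdhd for complex II, Uqcr genes for complex III, Cox4 to Cox8 genes for complex IV and Atp5 genes for complex V, each with at least 1 RPKM (reads scaled by transcript length and by the library's mapped reads) in at least 1 library. Of 24786 genes in the tables, 82 symbols fitted and 80 were kept, 36 of complex I, 4 of complex II, 8 of complex III, 16 of complex IV and 16 of complex V. Cox7b2 and Cox8c were left out because they were listed at 0 in all 18 libraries. The grouping follows the symbols, so Ndufa4, known as a subunit of complex IV, is counted with complex I, and Cox7a2l, known as a factor that joins complexes III and IV, is counted with complex IV. Atp5s is counted with complex V by its symbol alone.

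Complexes I and II take electrons from NADH and from succinate, complex III passes them from coenzyme Q to cytochrome c, and complex IV hands them to oxygen. The protons pumped on the way drive complex V, which makes ATP. Hepatocytes are rich in mitochondria and rely on this chain for urea synthesis, gluconeogenesis and fat oxidation, whereas T cells that divide are known for high glycolysis beside it. Several complex IV subunits exist as a widespread form and as a form restricted to heart, skeletal muscle, lung, vessel wall, brown fat or testis, encoded by separate genes. The 13 subunits that mitochondria encode themselves were not analysed here.

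The RNA came from liver, thymus and liver CD8+ T cells of C57BL/6 mice aged 2 to 4 weeks. TG marks the dnTGFβRII transgene, a dominant-negative TGF-β receptor II that is known to be driven by a Cd4 promoter and so to act in T cells. Aire is the transcriptional regulator that lets thymic medullary epithelium express tissue antigens. The liver groups were untreated Aire+/+, untreated TG Aire-/- and TG Aire-/- depleted of CD8+ T cells, with 2 libraries each, all labelled as batch 2. The thymus groups were Aire-/-, TG Aire+/- and TG Aire-/-, with 3 libraries each, and the CD8+ T cell groups carried the same 3 genotypes with 1 library each, from 500000 sorted cells. Every thymus and CD8+ T cell group thus carried at least 1 mutant Aire allele and had no wild-type counterpart. The comparisons ask how the double-mutant liver, thymus and T cells differed from their controls, and how the double-mutant liver differed after CD8+ T cells were removed. Of the 22 samples of the series, 4 further liver samples were not analysed here. The labels do not say that the libraries of a group came from separate animals, so p-values measure only the spread between these samples, which may be technical.

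Aire RNA was at 27.2, 29.5 and 16 RPKM in the thymus libraries labelled Aire-/-, at 13.6, 10.9 and 10.2 in those labelled TG Aire+/-, and at 20.2, 6.5 and 7.63 in those labelled TG Aire-/-. The gene-level value was therefore not lower in the libraries labelled as null, and because the labels do not say which part of the gene is deleted it cannot check the genotype. Cd8a was at 8.76 and 3.75 RPKM in the untreated TG Aire-/- livers, and at 0 and 0.187 in the depleted ones. The following libraries stood apart. The CD8+ T cell library labelled Aire-/- had 8.84% of its summed RPKM in 9 erythroid markers, against 0.125% and 0.137% in the other two libraries, and its summed macrophage markers were at 405.3 RPKM against 14 and 56.3. In the thymus library TG Aire-/- replicate 1, 10 markers of double-positive thymocytes summed to 44.3 RPKM, against 973 to 1526 in the other 8, and the adipocyte markers to 1089, against 70.4 to 137. Low RPKM values come in steps, from which a depth of 20300000 to 29900000 reads a library was inferred.

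Summed over all members, the liver libraries held 6093 to 10347 RPKM, the thymus libraries 5389 to 11970 and the CD8+ T cell libraries 3707 to 7425. These sums set the tables side by side, and the tables may have been normalised separately. Replicates differed as much as groups. The untreated TG Aire-/- livers summed to 10347 and 6093 RPKM, with the Aire+/+ livers at 9784 and 7624 between them and the CD8-depleted ones at 6225 and 6522. In the thymus the widest range was within the libraries labelled Aire-/-, at 11970, 5389 and 6477. The member with the highest median in liver was Atp5b, the catalytic beta subunit of ATP synthase, at 432 RPKM (305 to 541 over 6 libraries), followed by Cox6a1 at 347, Atp5g3 at 305 and Cox4i1 at 301. In thymus Cox4i1 led at 325 RPKM (232 to 603 over 9 libraries), and in CD8+ T cells Atp5b at 285 (258 to 303 over 3 libraries). Neighbours in these orders lay within each other's range.

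The order of the members was much alike in the 3 tissues. Across the 80 members, Spearman's rho of the median RPKM was 0.862 between liver and thymus, 0.840 between liver and CD8+ T cells and 0.867 between thymus and CD8+ T cells, a description over genes that share libraries and depth. One departure was Cox7a2l, at 58.5 to 112 RPKM in liver, 166 to 253 in thymus and 161 to 260 in CD8+ T cells, where no liver library reached a library of the other tissues. Sdhd, a membrane anchor of succinate dehydrogenase, lay the other way, with a median of 107 RPKM in liver, 56.4 in thymus and 33.2 in CD8+ T cells. Atp5g1, 1 of 3 genes for the c subunit of the ATP synthase rotor, had medians of 63.2, 28.6 and 16.7 RPKM in the same order.

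**Figure D1:**
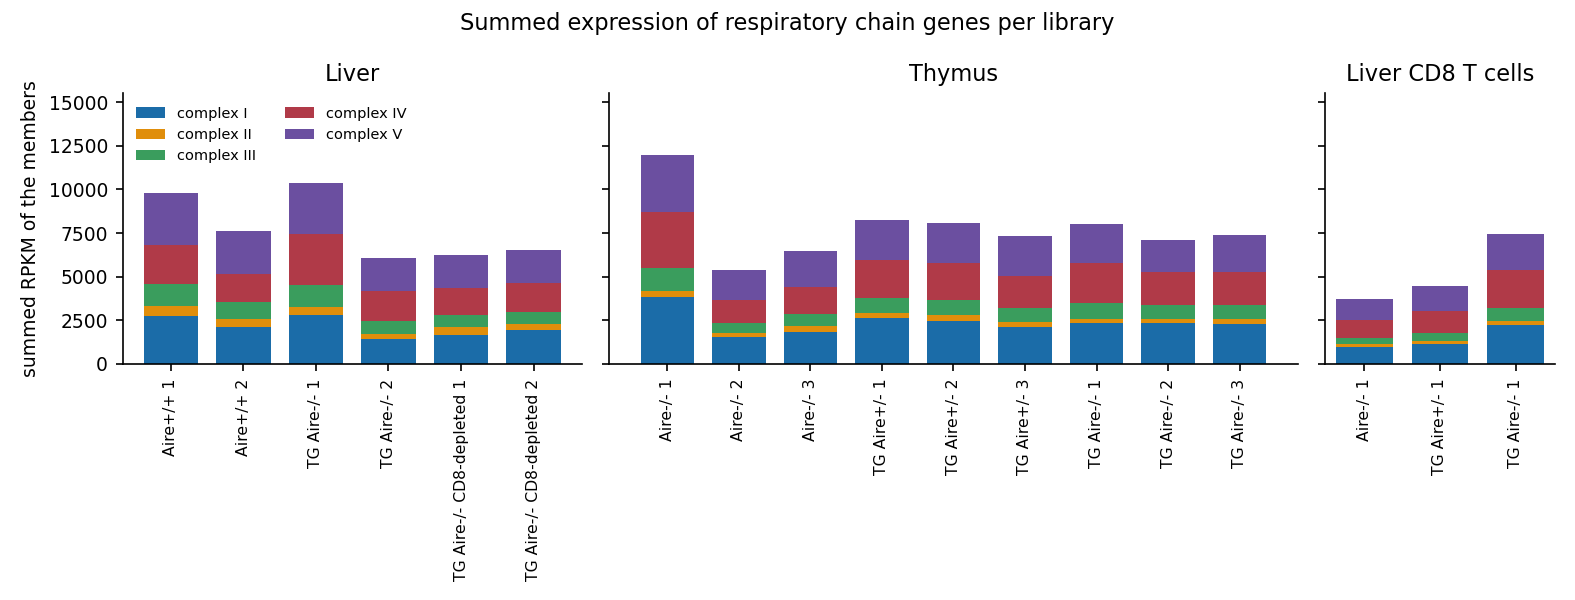
Summed RPKM of the members, stacked by complex, in each of the 18 libraries, with liver, thymus and CD8+ T cells side by side. The tallest bar is thymus Aire-/- replicate 1 at 11970 RPKM, and the 2 untreated TG Aire-/- livers, at 10347 and 6093, enclose the 2 Aire+/+ livers.

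In the untreated TG Aire-/- liver 3 members rose against Aire+/+, and all of them were tissue-restricted subunits of cytochrome c oxidase: Cox4i2, Cox6b2 and Cox7a1. They were 3 of the 78 members tested, while 31.8% of the 12231 genes tested rose in this comparison. No member fell, while 5.5% of all genes did. The 75 members without the tissue-restricted forms gave no call, with 25 estimates above 0 and 50 below. The median log2 difference of the 78 members was -0.14, against 0.53 for all genes. With libraries scaled by their median ratio, which moved the median of all genes by -0.41, the member median was -0.63, Ndufb2 and Sdha fell and Cox7a1 lost its call. Of the calls over all genes, 64.3% were then higher, in place of 85.3%. The test was limma on log2(RPKM + 1), a scale that understates the change of low genes, with Benjamini-Hochberg adjustment over all genes. In whole liver, fewer cells of a type and less RNA per cell cannot be told apart.

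Cox4i2 encodes the form of subunit 4 known from lung and vessel wall cells, where it takes part in oxygen sensing. It was at 0.318 and 0.407 RPKM in the Aire+/+ livers, at 6.67 and 11.6 in the untreated TG Aire-/- livers, and at 0 and 0.164 in the CD8-depleted ones. Both untreated TG Aire-/- livers were far above the other 4, and the depleted livers were under the level of 3 reads at the inferred depth (0.181 to 0.202 RPKM). The log2 difference from Aire+/+ was 2.85 (SE 0.29, limma adjusted p = 0.00189).

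Cox6b2 encodes the form of subunit 6B known from testis. Its RPKM was 0.674 and 0.787 in Aire+/+, 5.43 and 3.13 in untreated TG Aire-/- and 0.217 and 0.790 in CD8-depleted livers. The untreated TG Aire-/- livers again lay above all others, and the log2 difference from Aire+/+ was 1.57 (SE 0.30, limma adjusted p = 0.00780). Cox7a1 encodes the heart and muscle form of subunit 7A. Its RPKM was 1.31 and 0.405 in Aire+/+, 6.41 and 2.21 in untreated TG Aire-/- and 0.600 and 0.923 in CD8-depleted livers. The groups did not overlap, but 1 Aire+/+ library reached more than 1 RPKM, and the log2 difference was 1.44 (SE 0.42, limma adjusted p = 0.0341). Without overlap, 63% of all genes and 5 of the 78 members were higher in untreated TG Aire-/- than in Aire+/+ livers. Cox4i2 and Cox6b2 reached the minimum of 1 RPKM in 2 livers only through the untreated TG Aire-/- group, and without this minimum the limma adjusted p was 0.0131 for Cox4i2, 0.0316 for Cox6b2 and 0.0918 for Cox7a1. Of the other restricted forms, Cox6a2 was at 0 to 0.627 RPKM over the 6 livers and Cox8b was listed at 0 in every liver, so neither was tested.

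Set against their widespread partners, the restricted forms stayed a small share in every liver. Cox4i2 made up 0.0839% and 0.137% of the RPKM of Cox4i1 and Cox4i2 together in Aire+/+ livers, 1.31% and 3.66% in untreated TG Aire-/- livers, and 0% and 0.0608% in CD8-depleted livers. Cox6b2 made up 0.297% and 0.477% of its pair in Aire+/+, 1.63% and 1.75% in untreated TG Aire-/-, and 0.260% and 0.521% in depleted livers. For Cox7a1 the shares were 1.16% and 0.427%, then 4.08% and 2.5%, then 0.771% and 0.874%. In all 3 pairs both untreated TG Aire-/- livers had the highest shares, and the widespread partners gave no call: Cox4i1 had a log2 difference of 0.23 (SE 0.37), Cox6b1 0.31 (SE 0.44) and Cox7a2 0.15 (SE 0.36) from Aire+/+.

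**Figure D2:**
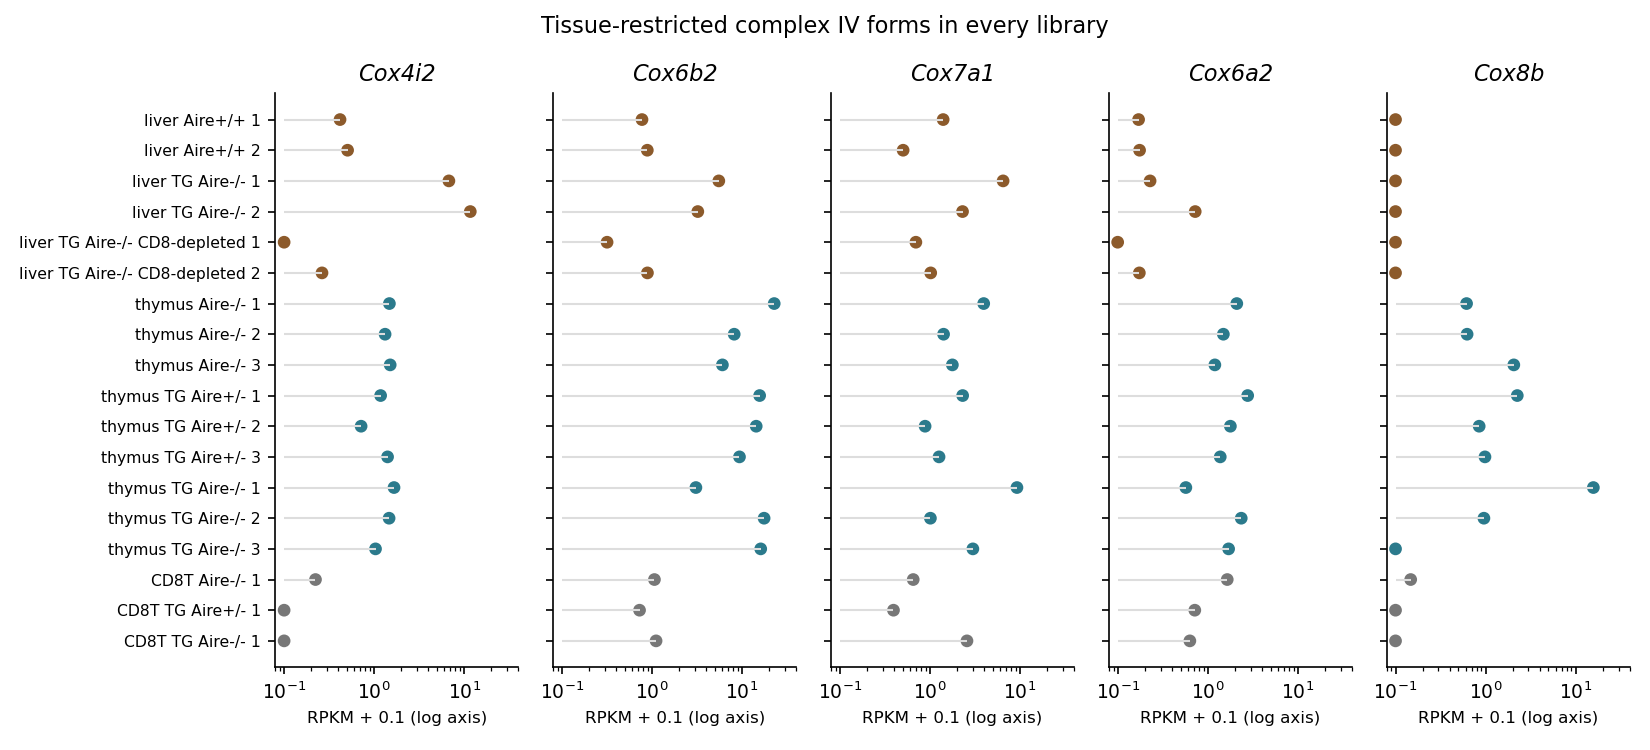
RPKM + 0.1 on a log axis of the 5 tissue-restricted complex IV genes in each of the 18 libraries, 1 point per library. Cox4i2 is highest in the 2 untreated TG Aire-/- livers (6.67 and 11.6 RPKM), and Cox8b and Cox7a1 are highest in thymus TG Aire-/- replicate 1 (15.7 and 9.18 RPKM).

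The promoters of the 2 restricted forms found in the RefSeq table are shown beside those of their widespread partners, since the restricted forms rose in livers where the partners gave no call. Each run is the 250 bases before the RefSeq start in GRCm38.p6, read in the direction of the gene, with a found motif in capitals: Cox6b1 at chr7:30626115-30626364 (minus strand, with the GABP motif on the opposite strand), Cox6b2 at chr7:4753095-4753344 (minus strand, SP1 motif), Cox7a2 at chr9:79759854-79760103 (minus strand, none of the 5 motifs) and Cox7a1 at chr7:30183921-30184170 (plus strand, none).
Cox6b1: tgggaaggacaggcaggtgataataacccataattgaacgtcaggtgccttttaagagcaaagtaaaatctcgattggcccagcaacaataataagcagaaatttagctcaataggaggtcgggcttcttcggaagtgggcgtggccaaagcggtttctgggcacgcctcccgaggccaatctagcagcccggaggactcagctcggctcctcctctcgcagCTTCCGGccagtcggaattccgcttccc
Cox6b2: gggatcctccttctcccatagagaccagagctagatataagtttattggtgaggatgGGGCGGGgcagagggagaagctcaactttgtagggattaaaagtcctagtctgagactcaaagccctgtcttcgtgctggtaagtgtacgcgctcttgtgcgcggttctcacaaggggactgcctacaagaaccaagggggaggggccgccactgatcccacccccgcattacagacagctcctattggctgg
Cox7a2: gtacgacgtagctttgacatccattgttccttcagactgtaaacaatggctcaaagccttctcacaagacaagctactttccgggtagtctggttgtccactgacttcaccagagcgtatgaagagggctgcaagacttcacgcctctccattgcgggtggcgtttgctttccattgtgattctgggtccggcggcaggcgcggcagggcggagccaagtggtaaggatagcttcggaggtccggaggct
Cox7a1: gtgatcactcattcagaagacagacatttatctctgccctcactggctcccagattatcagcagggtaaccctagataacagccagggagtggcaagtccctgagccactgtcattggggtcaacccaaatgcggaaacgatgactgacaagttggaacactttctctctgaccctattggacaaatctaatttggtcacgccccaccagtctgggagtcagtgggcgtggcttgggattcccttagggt
Of the 5 motifs searched on both strands, Cox6b1 held CCGGAAG, a core of the GABP (NRF2) site, and Cox6b2 held GGGCGGG, a core of the SP1 site. For Cox7a2 and Cox7a1 none of the motif letters stood in these windows. The gene bodies lie on chromosome 2 for Cox4i2 (152754173 to 152765037, plus strand) and on chromosome 7 for Cox6b2 (4751792 to 4753094, minus strand) and Cox7a1 (30184144 to 30186078, plus strand), in GRCm38, and their exons overlap no annotated gene. Exons of 25 of the 80 members overlap a gene on the other strand, Cox4i1 with Emc8 among them, and whether the counting used strand is not given in the sources used here.

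Markers of several other cell types, but not of all, moved with these 3 genes in the same livers. Of all genes, 31.8% rose and 5.5% fell in untreated TG Aire-/- against Aire+/+ livers. The 8 leukocyte markers summed to 49.9 and 62.9 RPKM in Aire+/+, 541 and 603 in untreated TG Aire-/- and 73.2 and 171 in CD8-depleted livers, and 8 of 8 rose against Aire+/+. Of 12 mural and smooth muscle markers, a list drawn up after the values were seen, 10 were tested and 8 rose; their sum was 34.8 and 39.3 RPKM in Aire+/+, 200 and 281 in untreated TG Aire-/- and 16.1 and 26 in depleted livers. Acta2, Tagln, Des, Rgs5 and Pdgfrb were above 1 RPKM in all 4 untreated livers, and Cnn1 was at 0 in 1 Aire+/+ and both depleted livers. The 15 hepatocyte markers summed to 96958 and 96059 RPKM in Aire+/+, 63054 and 43349 in untreated TG Aire-/- and 94603 and 63769 in depleted livers, and 4 of 15 fell against Aire+/+. Of 9 erythroid markers 8 rose, from sums of 2340 and 2033 RPKM to 30622 and 17508. The 10 macrophage markers summed to 260.0 and 224 RPKM in Aire+/+, 1743 and 1642 in untreated TG Aire-/- and 229 and 733 in depleted livers. The 9 adipocyte markers followed the same order in their sums, at 13.4 and 8.95, then 277 and 635, then 5.06 and 10.3 RPKM. In the untreated TG Aire-/- livers 4 and 3 of them were at 0. Only 2 and 3 reached 1 RPKM there, as in Aire+/+ (2 and 3), so few genes carried the sum. The 13 skeletal and heart muscle markers summed to 0.637 and 0.615, then 5.60 and 12.4, then 0.418 and 0.627 RPKM, with 4 and 5 of them at 0 in the untreated TG Aire-/- livers. Other lists did not follow this order. The 7 B cell markers summed to 5.58 and 6.92, then 16.1 and 4.22, then 2.19 and 5.72 RPKM. The 6 brown adipocyte markers were highest in Aire+/+, at 135 and 131, then 97.1 and 56.1, then 87.7 and 101 RPKM. The part of these cell types in the rise of the restricted subunits was not tested.

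The remaining subunits of the untreated TG Aire-/- liver are best read by complex. For complex I the median log2 difference from Aire+/+ was -0.19 and 0 of 36 members passed the test. Ndufs1, an iron-sulfur subunit of the matrix arm, had a difference of -0.37 (SE 0.29), Ndufv1, which binds NADH, -0.48 (SE 0.31), Ndufa9 -0.32 (SE 0.31) and Ndufb8 0.06 (SE 0.37). The estimate farthest below 0 was that of Ndufb2, an accessory subunit of the membrane arm, at 39.95 and 30.4 RPKM in Aire+/+ and 23.6 and 14.3 in untreated TG Aire-/- livers. The groups did not overlap, and its difference of -0.88 (SE 0.35) had an unadjusted p of 0.0376 and a limma adjusted p of 0.0825. Without overlap, 15 of the 78 members were lower in this comparison, while 15.4% of all genes were. Exons of Ndufb2 share bases with Braf and Gm16272 on the other strand and with Gm42420, annotated as protein-coding, on its own strand.

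All 4 complex II genes had estimates below 0, with a median of -0.51 and no call. Sdha, the flavoprotein of succinate dehydrogenase, was at 98.4 and 89.5 RPKM in Aire+/+, 62.1 and 64.2 in untreated TG Aire-/- and 81.5 and 65.9 in CD8-depleted livers. The Aire+/+ libraries were the highest, and the difference of -0.56 (SE 0.27) gave a limma adjusted p of 0.137. Sdhb, the iron-sulfur subunit, had -0.59 (SE 0.36), and the membrane anchors Sdhc and Sdhd had -0.46 (SE 0.32) and -0.36 (SE 0.35). Complex III had a median of -0.31 over 8 members, with the core subunits Uqcrc1 at -0.21 (SE 0.29) and Uqcrc2 at -0.34 (SE 0.27) and the Rieske protein Uqcrfs1 at -0.48 (SE 0.29). Complex V had a median of -0.23 over 16 members. Its catalytic head gave -0.22 (SE 0.32) for Atp5a1 and -0.36 (SE 0.35) for Atp5b, and its central stalk -0.13 (SE 0.29) for Atp5c1. The c subunit genes gave -0.25 (SE 0.48) for Atp5g1, 0.25 (SE 0.30) for Atp5g2 and -0.36 (SE 0.37) for Atp5g3.

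Complex IV, as grouped by symbol, stood apart from the other 4 complexes in this comparison as a description: 12 of its 14 tested members had estimates above 0, with a median of 0.29, while the medians of complexes I, II, III and V lay between -0.19 and -0.51. This grouping counts Cox7a2l (80.4 and 67.5 RPKM in Aire+/+, 90.9 and 112 in untreated TG Aire-/-). It leaves out Ndufa4 (317 and 238, then 282 and 108). For 11 complex IV genes the median log2 deviation from each gene's liver mean was 0.61 and -0.17 in untreated TG Aire-/- replicates 1 and 2. In Aire+/+ it was 0.20 and -0.18, so only replicate 1 lay above both Aire+/+ livers. The shift of -0.41 that median-ratio scaling gave is larger than the median of complex IV. Among its widespread members Cox5a had 0.05 (SE 0.37), Cox5b 0.34 (SE 0.46), Cox6a1 0.27 (SE 0.41), Cox8a 0.39 (SE 0.40) and Cox7b -0.14 (SE 0.39), none of which passed the test. The difference between complexes was not tested. The 2 untreated TG Aire-/- libraries also differed from each other: 71 of 75 members were higher in replicate 1, by a median of 0.82 on the log2 scale, while over all genes the median was -0.13. The same 2 libraries differed by 0.47 over all genes with transcripts up to 1000 bases and by 0.12 over ribosomal protein genes. The member median relative to Aire+/+ was -0.56 without replicate 1 and 0.30 without replicate 2. Without replicate 1 the calls did not hold. Cox4i2 and Cox6b2 missed the minimum of 1 RPKM in 2 livers and were not tested, there and without replicate 2. Cox7a1 was tested in both cases, with log2 differences of 0.83 and 2.04. Without Aire+/+ replicate 1 Cox4i2 differed by 2.80, and Cox6b2 and Cox7a1 did not keep their calls.

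**Figure D3:**
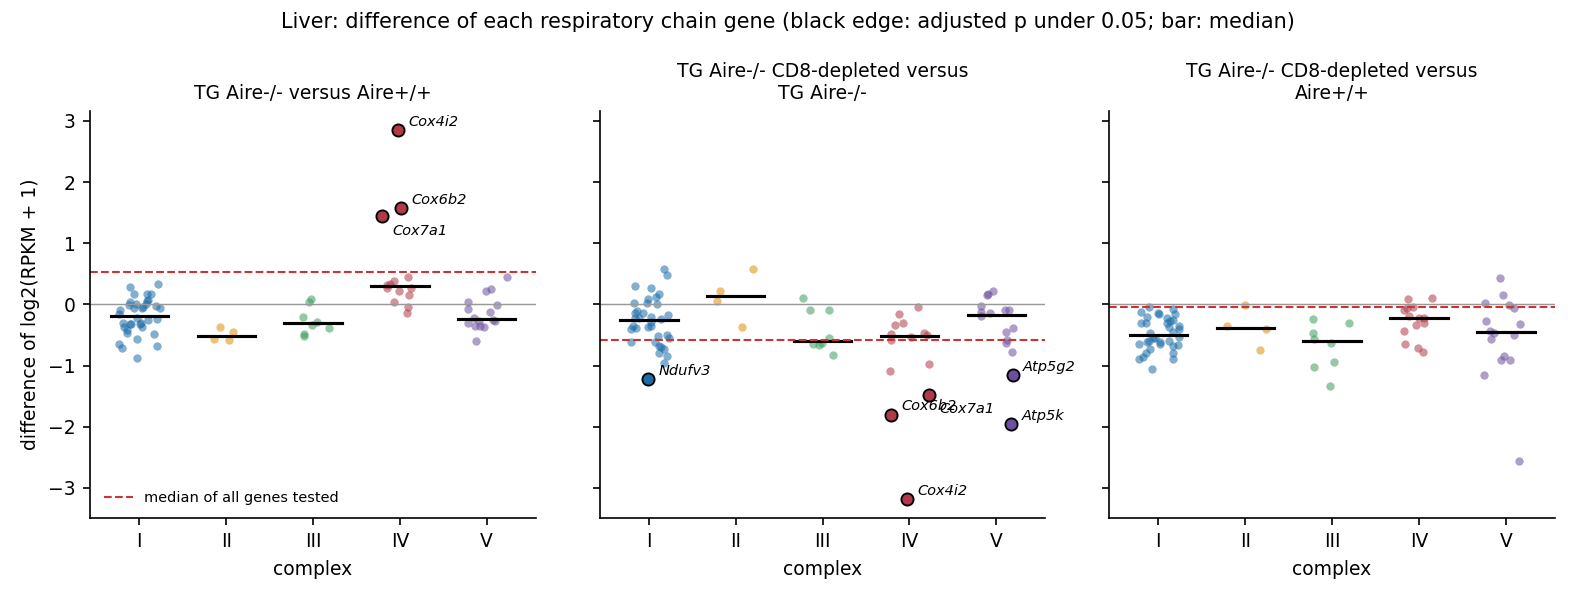
Log2 difference of each tested member in the 3 liver comparisons, by complex, with a black edge for a limma adjusted p under 0.05, a bar for the complex's median and a dashed red line for the median of all genes. The 3 called points above 0 in the first panel are Cox4i2, Cox6b2 and Cox7a1, and the third panel has no called point although 73 of 78 members lie below 0.

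After depletion of CD8+ T cells, 6 members fell relative to untreated TG Aire-/- liver and none rose. They were Cox4i2, Cox6b2, Cox7a1, Atp5g2, Atp5k and Ndufv3, or 6 of 78 members, while 33.5% of all genes fell and 4.49% rose. The comparison shares the untreated TG Aire-/- libraries with the one above, so the same 2 libraries enter both. The median log2 difference of the members was -0.35, against -0.58 for all genes, with 16 estimates above 0 and 62 below. With median-ratio scaling, which moved the median of all genes by 0.46, the member median was 0.20, only Cox4i2 and Cox6b2 fell, and 31.6% of the calls over all genes were higher, in place of 11.8%. By complex the medians were -0.26, 0.13, -0.59, -0.52 and -0.17 for complexes I to V, and the calls were 1 of 36, 0 of 4, 0 of 8, 3 of 14 and 2 of 16.

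For the restricted subunits the log2 differences were -3.19 for Cox4i2 (SE 0.29, limma adjusted p = 0.00153), -1.80 for Cox6b2 (SE 0.30, adjusted p = 0.00555) and -1.48 for Cox7a1 (SE 0.42, adjusted p = 0.0304). Without the minimum of 1 RPKM in 2 livers the limma adjusted p was 0.0121, 0.0246 and 0.0855 in the same order. Their values in all 6 livers stand above, and in each case both untreated TG Aire-/- libraries exceeded both depleted ones. That held for 60.6% of all genes and for 22 of the 78 members. In this comparison the leukocyte markers fell in 8 of 8, the mural and smooth muscle markers in 9 of 10 and the erythroid markers in 8 of 9, while 3 of 15 hepatocyte markers rose. Of all genes 33.5% fell and 4.49% rose. The mural and smooth muscle list was drawn up after the values of these livers were seen. Slc4a1 and Epb42 were at 0 in depleted replicate 1. Their part in the fall of the restricted forms was not tested.

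The other 3 genes that fell are widespread subunits. Atp5k encodes the small e subunit of ATP synthase, which helps the enzyme form dimers. It was at 102 and 60.3 RPKM in Aire+/+, 76.4 and 34.7 in untreated TG Aire-/- and 8.2 and 18.7 in CD8-depleted livers. Both depleted libraries lay below the other 4, with a log2 difference of -1.96 from untreated TG Aire-/- (SE 0.51, limma adjusted p = 0.0224). Atp5g2, another c subunit gene of the rotor ring, was at 67.8 and 49.0 RPKM in Aire+/+, 80.1 and 59.0 in untreated TG Aire-/- and 31.1 and 29.6 in depleted livers. It too was lowest in the depleted livers, by -1.16 against untreated TG Aire-/- (SE 0.30, adjusted p = 0.0220). Ndufv3, a small accessory subunit of the complex I matrix arm, was at 30.9 and 20.4, then 38.7 and 26.3, then 9.58 and 17.7 RPKM in the same order. Its difference was -1.22 (SE 0.38, limma adjusted p = 0.0391), with the depleted libraries again lowest. Its call was lost in 10 of the alternatives tried, that of Atp5g2 in 8 and those of Atp5k and Cox7a1 in 5 each.

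The promoters of these 3 genes are shown because they fell in the same comparison, again as the 250 bases before the RefSeq start in GRCm38.p6 with a found motif in capitals: Atp5k at chr5:108434400-108434649 (minus strand), Atp5g2 at chr15:102671048-102671297 (minus strand) and Ndufv3 at chr17:31519865-31520114 (plus strand).
Atp5k: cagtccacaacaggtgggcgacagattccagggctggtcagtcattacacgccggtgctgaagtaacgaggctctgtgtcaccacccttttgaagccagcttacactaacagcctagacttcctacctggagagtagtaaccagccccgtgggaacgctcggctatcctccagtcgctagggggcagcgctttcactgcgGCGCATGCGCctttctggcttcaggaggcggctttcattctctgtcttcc
Atp5g2: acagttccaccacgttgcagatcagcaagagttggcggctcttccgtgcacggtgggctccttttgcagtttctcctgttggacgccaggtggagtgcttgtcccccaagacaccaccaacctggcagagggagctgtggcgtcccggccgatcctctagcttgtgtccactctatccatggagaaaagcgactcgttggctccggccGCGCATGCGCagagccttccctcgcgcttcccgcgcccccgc
Ndufv3: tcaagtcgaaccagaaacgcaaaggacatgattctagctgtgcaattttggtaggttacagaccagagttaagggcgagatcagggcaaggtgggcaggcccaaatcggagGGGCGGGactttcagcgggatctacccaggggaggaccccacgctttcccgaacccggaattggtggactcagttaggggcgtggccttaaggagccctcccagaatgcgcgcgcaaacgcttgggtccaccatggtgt
The capitals in Atp5k and Atp5g2 mark GCGCANGCG, the core of the site of nuclear respiratory factor 1 (NRF1), a regulator of many respiratory chain genes, and those in Ndufv3 mark GGGCGGG. Shares of genes were counted over the full 300-base RefSeq window, from 250 bases before to 50 after the start, in which Atp5k also held CCGGAAG and Atp5g2 GGGCGGG beyond the runs shown. Such windows were found for 67 of the 80 members, and 20 of them (29.9%) held the NRF1 motif on either strand, against 7.03% of all genes in the table. CCGGAAG was in 16 (23.9% against 9.93%), AAGATGGCG, a YY1 core, in 7 (10.4% against 1.64%), TCAAGGTCA, an estrogen-related receptor core, in 2 (2.99% against 0.466%) and GGGCGGG in 23 (34.3% against 27.9%). Apart from the SP1 motif, whose share was near that of all genes, each motif was more frequent in members. Sdha, Atp5g3 and Uqcrc1, which did not pass the test here, also held the NRF1 motif. Exons of Atp5k (chromosome 5, 108433244 to 108434448, minus strand) and Ndufv3 (chromosome 17, 31520115 to 31531331, plus strand) overlap no annotated gene, and Atp5g2 (chromosome 15, 102662864 to 102672352, minus strand) holds Mir688 on its own strand. Atp5k also has 1 named pseudogene in the annotation, whose reads the counting could have split.

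Among the remaining members, none passed the test after depletion. Cox6b1 was nearest, at 327 and 176 RPKM in untreated TG Aire-/- and 83.4 and 151 in depleted livers, with a difference of -1.09 (SE 0.44, limma adjusted p = 0.0869). Atp5g3, the most abundant c subunit gene of the liver, was at 403 and 247 against 168 and 198 RPKM, with -0.79 (SE 0.37, adjusted p = 0.124). Cox4i1, at 503 and 306 against 274 and 269, had -0.53 (SE 0.37) and Cox5b -0.98 (SE 0.46). In each of these the depleted libraries lay below both untreated TG Aire-/- libraries, without a call. The same held for 22 of the 78 members and for 60.6% of all genes, called or not. Of the 4 complex II genes 3 had estimates above 0, with Sdhb at 0.58 (SE 0.36, adjusted p = 0.234), Sdha at 0.21 (SE 0.27), Sdhc at 0.05 (SE 0.32) and Sdhd at -0.37 (SE 0.35). Atp5a1 and Atp5b of the catalytic head and Atp5c1 of the central stalk had differences of -0.10, -0.14 and 0.15 (SE 0.32, 0.35 and 0.29). Without untreated TG Aire-/- replicate 1 the calls did not hold and the median moved to 0.03. Cox4i2 and Cox6b2 missed the minimum of 1 RPKM in 2 livers and were not tested, there and without replicate 2. Without replicate 2 Cox7a1 differed by -2.08 and Ndufa5, which had no call with all libraries, by -1.66. Leaving out depleted replicate 1 kept 2 of the 6 calls.

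No member differed between CD8-depleted TG Aire-/- and Aire+/+ livers by limma at an adjusted p under 0.05, while 0.221% of all genes were higher and 0.327% lower. Even so, 73 of the 78 members had estimates below 0, with a median of -0.43, against -0.04 for all genes. By complex the medians were -0.50, -0.38, -0.60, -0.23 and -0.45 for complexes I to V, and all 48 members of complexes I, II and III lay below 0. At an unadjusted p under 0.05, 6 of 78 members were lower, a share near the 6.92% of all genes: Atp5k, Atp5g3, Atp5g2, Atp5d, Ndufb11 and Ndufv3. Atp5k had the largest difference, -2.56 (SE 0.51, unadjusted p = 0.00130, limma adjusted p = 0.108), and Atp5g3, at 455 and 362 RPKM in Aire+/+ and 168 and 198 in depleted livers, had -1.15 (SE 0.37, adjusted p = 0.292). Leaving out each of the 6 livers in turn kept the member median below 0, between -0.55 and -0.29. The untreated TG Aire-/- livers are in neither group, so leaving them out could move this median only through the genes tested. Among members near 0 were Sdhb at 0.00 (SE 0.36), Atp5c1 at 0.02 (SE 0.29) and Cox8a at 0.09 (SE 0.40).

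Glycolysis genes moved in larger number than the subunits did. In untreated TG Aire-/- against Aire+/+ liver, 17 of 21 glycolysis genes rose, with a median of 2.54, while 31.8% of all genes rose. Pkm, pyruvate kinase, was at 9.06 and 7.70 RPKM in Aire+/+ and 180 and 439 in untreated TG Aire-/- livers, a log2 difference of 4.92 (limma adjusted p = 0.00196). Slc16a3, a lactate exporter, differed by 4.62 and Pfkp, a phosphofructokinase, by 4.34. After CD8 depletion 18 of 21 glycolysis genes fell against the same untreated livers, while 33.5% of all genes fell. Their median was -2.46, and Pkm fell by 4.76, Slc16a3 by 4.32 and Pfkp by 3.65. The leukocyte and erythroid markers given above moved in the same livers, and their part in the glycolysis genes was not tested.

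Genes that feed or equip the chain gave few calls in this first comparison, in which 31.8% of all genes rose and 5.5% fell. Of 18 tricarboxylic acid cycle genes 2 fell in untreated TG Aire-/- against Aire+/+ liver, both for succinyl-CoA ligase: Suclg1, at 152 and 141 against 72.0 and 60.0 RPKM (-1.14), and Suclg2 (-1.02). Among 15 genes for cytochrome c and coenzyme Q synthesis Coq8a fell by 2.61 and Coq9 by 0.81, and Pdss1, which makes the tail of coenzyme Q, rose by 0.98. Among 11 carriers and uncoupling genes tested, 3 rose: Ucp2, an uncoupling protein abundant in leukocytes, by 2.63, Slc25a4, an ADP and ATP carrier, by 2.34, and Vdac2 by 1.27. Atpif1, the inhibitor of ATP synthase, rose by 1.26 as 1 of 4 genes in its list, from 11.3 and 7.86 to 26.8 and 21.5 RPKM. None of 15 assembly factors of complex I, 4 of complex II, 5 of complex III or 21 of complex IV passed the test, nor did 12 regulators of mitochondrial biogenesis or 8 antioxidant genes, and 1 of 20 import genes (Timm17a, 0.97) rose.

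After CD8 depletion, where 33.5% of all genes fell and 4.49% rose, the same lists gave other calls. Slc25a4 fell by 3.94, from 148 and 103 to 5.82 and 8.62 RPKM, Ucp2 by 2.34, Vdac2 by 1.03 and Atpif1 by 1.68, against the untreated TG Aire-/- livers shared by both comparisons. Of 21 complex IV assembly factors 3 fell, Pet100 by 1.33, Cox14 by 1.14 and Cox15, which makes heme A, by 0.83. Ndufaf4, an assembly factor of complex I, was at 6.65 and 4.82 RPKM in untreated and 16.9 and 9.43 in depleted livers, and rose by 1.04 as the only 1 of 15. Pdss1 fell by 0.86, Coq10b rose by 0.86 and Tomm40, the import pore, fell by 1.03. Of the tricarboxylic acid cycle genes none passed. Between depleted and Aire+/+ livers no gene of these lists passed the test. The 91 ribosomal protein genes, given for scale as other short and abundant transcripts, rose in 52 cases in untreated TG Aire-/- liver (median 0.98) and fell in 55 after depletion (median -1.03).

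**Figure D4:**
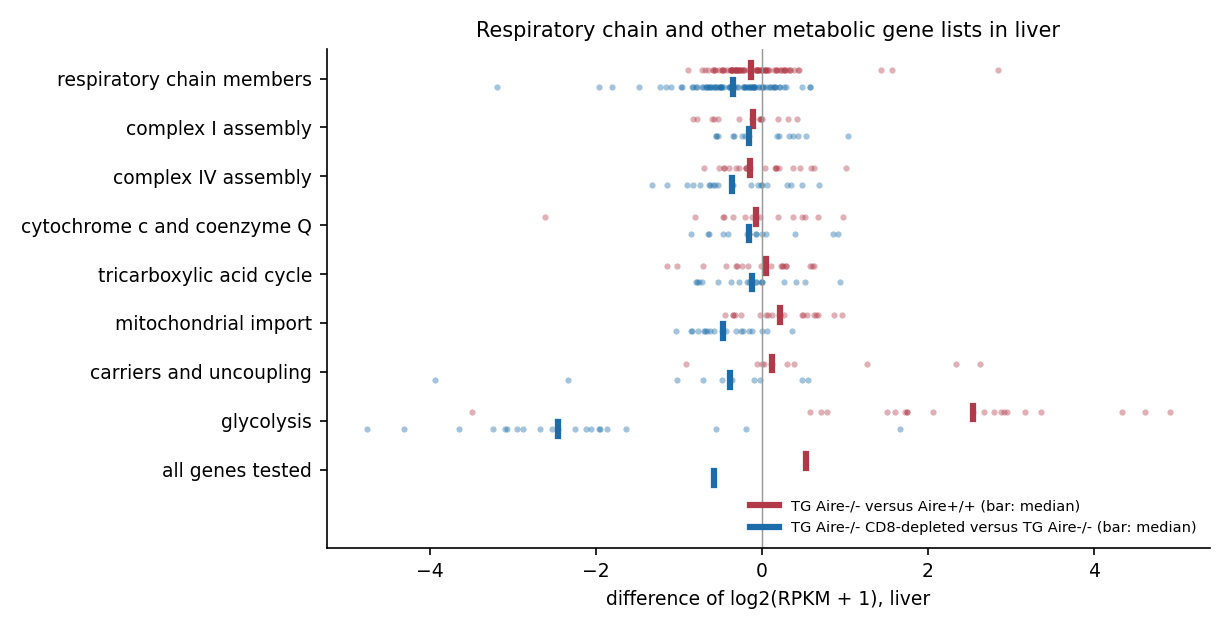
Log2 difference of each gene of the metabolic lists in liver, with the median of each list. The comparisons drawn are untreated TG Aire-/- against Aire+/+ (first) and CD8-depleted against untreated TG Aire-/- (second). Glycolysis has medians of 2.54 and -2.46 in the first and second comparison, while the members have medians of -0.14 and -0.35.

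In the thymus no member passed the test in any of the 3 comparisons. The same held for almost all genes: limma called 0% higher and 0% lower in TG Aire-/- against TG Aire+/-, 0% higher and 0.0159% lower in TG Aire-/- against Aire-/-, and 0% in both directions in TG Aire+/- against Aire-/-. At an unadjusted p under 0.05, 0 of 80 members stood out in each comparison, against 279, 949 and 118 of 12568 genes. The member medians were -0.08, 0.03 and 0.12, against -0.14, -0.11 and 0.01 for all genes. As the labels of these libraries could not be checked by Aire RNA, directions below are those of the labels.

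The subunits with the smallest p in TG Aire-/- against TG Aire+/- were Atp5c1, the gamma subunit of the central stalk, Cox7a1, Sdhb, Uqcrc1 and Sdhc. Atp5c1 was at 75.3, 89.6 and 98.0 RPKM in the libraries labelled TG Aire+/- and at 73.5, 51.4 and 78.8 in those labelled TG Aire-/-, overlapping, with a difference of -0.38 (SE 0.23, limma adjusted p = 0.892). Sdhb was at 114, 117 and 113 against 91.5, 73.7 and 102 RPKM, where the groups did not overlap, with -0.37 (SE 0.27, adjusted p = 0.892). In all, 5 of 80 members were lower in TG Aire-/- without overlap, while 7.88% of all genes were. Uqcrc1 had -0.30 (SE 0.23) and Sdhc -0.23 (SE 0.19) at the same adjusted p.

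Against the libraries labelled Aire-/-, the smallest p was that of Atp5b, at 246, 329 and 396 RPKM there and at 256, 121 and 184 in TG Aire-/-. The groups overlapped, and the difference was -0.82 (SE 0.38, limma adjusted p = 0.610). Its partner in the catalytic head, Atp5a1, was at 254, 280 and 328 against 228, 153 and 210 RPKM, with no overlap and a difference of -0.56 (SE 0.27, adjusted p = 0.610). It was the 1 of 80 members lower without overlap, while 6.42% of all genes were. Ndufv1, Atp5c1 and Uqcrc1 followed at -0.36, -0.37 and -0.37. Between TG Aire+/- and Aire-/-, Sdhc had 0.25 (SE 0.19), Ndufb3 0.43, Ndufv1 -0.25, Atp5b -0.46 and Uqcrb 0.41, all at a limma adjusted p of 1. In thymus replicate 1 of Aire-/- 70 of 76 members were higher than in replicate 2, by a median of 1.29 on the log2 scale, and ribosomal protein genes were higher by 1.37. Without that library the member median was 0.40 in TG Aire-/- and 0.51 in TG Aire+/-, each against Aire-/-.

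Some restricted forms of complex IV had a level of their own in thymus, and their extremes lay in single libraries. Cox6b2 was at 22.7, 8.09 and 5.96 RPKM in the libraries labelled Aire-/-, 15.6, 14.3 and 9.27 in those labelled TG Aire+/-, and 2.97, 17.5 and 16 in the double mutants, or 4.08% to 9.91% of its pair with Cox6b1 in 8 libraries and 1.67% in the first double mutant. That library, which stands apart in its cell markers, was also the highest for Cox8b, the brown fat and muscle form of subunit 8, at 15.7 RPKM against 0 to 2.15 in the other 8. Cox7a1 was at 9.18 RPKM there, against 0.786 to 3.87, and Cox6a2 at 0.472, against 1.10 to 2.68. The Cox6b2 difference from TG Aire+/- was -0.35 (SE 0.61) with this library and 0.37 when it was left out. In the same library Rag1, Rag2, Dntt and Ptcra, markers of double-positive thymocytes, were all under 3 RPKM, and the T cell markers summed to 770 RPKM, against 1975 to 3212 in the others. The part of these cells in its subunit values was not tested.

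In liver CD8+ T cells each genotype had 1 library, so no test was made, and differences of at least 1 on the log2 scale were counted among genes with at least 5 RPKM in either library. The library labelled TG Aire-/- was the highest for most subunits. Against TG Aire+/-, 21 of 74 members were higher by at least 1 and none lower, while 7.49% of all genes were higher and 8.25% lower by that much. Against Aire-/-, 38 of 74 members were higher and none lower, while 12.5% and 9.93% of all genes were. Between TG Aire+/- and Aire-/-, 0 of 74 members passed in either direction, while 2.52% and 3% of all genes did. The member medians were 0.82, 1.01 and 0.26, against 0.09, 0.15 and 0.08 for all genes.

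Complex I held most of these members: 15 of 36 members were higher by at least 1 against TG Aire+/-, and 22 of 36 against Aire-/-. Ndufb7, an accessory subunit at the foot of the membrane arm, was at 44.2 RPKM in the library labelled Aire-/-, 75.6 in that labelled TG Aire+/- and 225 in that labelled TG Aire-/-, a difference of 1.56 from TG Aire+/- and 2.32 from Aire-/-. Uqcr10, a small subunit of complex III, was at 49.7, 52.9 and 143 RPKM (1.42 and 1.51). Ndufa5 followed at 1.42, Ndufv2 at 1.34 and Ndufa11 at 1.32 against TG Aire+/-, and Uqcr11 at 1.91, Ndufb9 at 1.89, Atp5l at 1.85 and Ndufa12 at 1.82 against Aire-/-. Sdha alone was lower against TG Aire+/-, at 41.4, 48.5 and 35.1 RPKM (-0.46), while Sdhb, its partner, was at 38.6, 48.5 and 93.6 (0.93).

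The core subunits of the other complexes were spread between these. In the same order of libraries Cox4i1 was at 134, 188 and 397 RPKM, Cox5a at 55.2, 80.3 and 145 and Cox5b at 56.7, 110 and 198, each highest in TG Aire-/-. The catalytic beta subunit Atp5b was nearly level, at 258, 285 and 303, and Atp5a1 at 165, 196 and 264. By complex, 0 of 4, 3 of 8, 1 of 11 and 2 of 15 members of complexes II to V passed 1 against TG Aire+/-, and 2 of 4, 3 of 8, 7 of 11 and 4 of 15 against Aire-/-. Between TG Aire+/- and Aire-/- the widest differences were those of Cox5b (0.95) and Atp5h (0.85) upward and Atp5g1 (-0.86) and Atp5g2 (-0.43) downward.

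Transcript length moved with these differences. Of 79 members with a length, 47 (59.5%) have a transcript of at most 1000 bases, against 17.9% of all genes. Over all genes, the median difference of TG Aire-/- from TG Aire+/- was 0.65 for transcripts up to 1000 bases and 0.04 for longer ones, and from Aire-/- 0.68 and 0.11. Ribosomal protein genes had medians of 0.75 and 0.49. With the trend on transcript length removed from each library, an alternative chosen after seeing the data, 2 members were at least 1 higher against TG Aire+/- (Ndufv2, and Atp5g1, which was not among the 21) and 9 against Aire-/-, all of them among the 38. Over all genes 4.51% and 6.57% were then higher by that much, and the member medians were 0.27 and 0.36. The part of transcript length in the differences was not otherwise tested. The comparison with Aire-/- also rests on the library with erythroid and macrophage RNA given above and cannot be made without it, while the one with TG Aire+/- does not use it.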

How the data were processed

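RNA sequencing of 22 mouse samples was deposited, and 18 of them (6 liver, 9 thymus and 3 liver CD8+ T cell libraries) were used. The authors deposited RPKM values per gene in 3 tables, and per the submitters' processing notes reads were aligned with STAR 2.5.2b to mm10. How reads were counted, and whether by strand, is not given in the sources used here; libraries followed Illumina or BGI protocols, per the labels' protocols, without saying which. RPKM divides by mapped reads and transcript length, so it hides depth and lets abundant genes lower the others. Depth was inferred from the steps of low RPKM values of 6084 genes with 1 annotated transcript. For each library the depth that gave the most whole values was kept. At that depth 40.5% to 49.2% of values were whole within 0.1 reads. The 20% that chance gives holds for a depth fixed beforehand, not for the best of many. As most values were not whole, no count test was run.

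The tests of liver and thymus used limma 3.58.1 (R 4.3.3) on log2(RPKM + 1), two-sided, with an intensity trend and no covariate, all 3 groups of a table in 1 fit, on genes with RPKM of at least 1 in 2 liver or 3 thymus samples. Benjamini-Hochberg adjustment ran over all genes of a comparison, with a threshold of 0.05. CD8+ T cells had 1 library per group and were described. The steps were tested on simulated data. Positions and lengths came from GENCODE vM21, promoters from RefSeq (GRCm38.p6).

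The members and lists were chosen with earlier results of these data known. Named members were, per liver comparison and complex, up to 2 past the threshold each way, in thymus the 5 smallest p, in CD8+ T cells the 5 largest differences each way, and a fixed set of core subunits and isoform pairs; for lists, up to 3 calls each way. Ndufb2 and Cox7a2l, and the genes named from unadjusted p-values, were chosen after their values were seen. Some named genes are not reported here. Alternatives were the pseudocount, the low-value filter, scaling, the trend, the groups fitted, a replicate block and leaving out each replicate.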

Additional observations from a re-analysis of the deposited data

Results flagged for a closer look

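For 6 members every thymus library of 1 group lay below every library of the other, while the single CD8+ T cell library of the same genotype lay above its counterpart. In thymus these were 5 of 80 members lower without overlap against TG Aire+/- and 1 of 80 against Aire-/-, below the 7.88% and 6.42% of all genes. The CD8+ T cell side was nearly given beforehand, since the TG Aire-/- library was above the others for almost every member compared, Sdha excepted. Every member lower without overlap in thymus was therefore listed, and the list adds nothing beyond these thymus counts. The difference between the tissues was not tested, since CD8+ T cells had 1 library per group.

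In TG Aire-/- against TG Aire+/-, Sdhb, the iron-sulfur subunit of succinate dehydrogenase, differed by -0.37 in thymus and by 0.93 in CD8+ T cells. Its membrane anchor Sdhc differed by -0.23 and 0.44. The complex III core subunits Uqcrc1 and Uqcrc2 differed by -0.30 and 0.49, and by -0.22 and 0.28. Ndufb6, an accessory subunit of complex I, differed by -0.19 and 0.88.

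In TG Aire-/- against Aire-/-, Atp5a1, the alpha subunit of ATP synthase, differed by -0.56 in thymus and 0.67 in CD8+ T cells. None of the thymus values passed the limma test, and directions follow the labels.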

How the results depend on the processing

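Of the values on whole comparisons, 300 kept their verdict under the alternatives and 27 moved; of those on named genes, 857 kept it, 158 lost their call, 2 gained one, 9 moved and 6 turned in sign. Cox4i2 was called in both liver comparisons in every alternative that left out no replicate. It reached the minimum of 1 RPKM only through the untreated TG Aire-/- livers. Leaving out either of these therefore removed it from the test, so those alternatives could not challenge its call. The cause of a change was not tested, except where fewer genes or libraries entered.

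Without the low-value filter, 3 members fell after CD8 depletion. With median-ratio scaling, 2 members fell in untreated TG Aire-/- against Aire+/+ liver (Ndufb2 and Sdha), with a median of -0.63, and 2 fell after depletion, with a median of 0.20. That scaling moved the median of all genes by -0.41 and 0.46, and calls over all genes became 2148 higher and 1191 lower (64.3% higher, against 85.3% as reported), and 923 higher and 2001 lower (31.6%, against 11.8%). With the length trend removed, an alternative chosen after seeing the data, 6 members fell in the first comparison, where 11.8% of all genes did, the median of the second was 0.17, and the shares of calls higher were 61.1% and 36.6%. In CD8+ T cells the same removal gave 2 and 9 members higher (1 of the 2, Atp5g1, not called as reported; 4.51% and 6.57% of all genes), with medians of 0.27 and 0.36, and 0.10 for TG Aire+/- against Aire-/-. Scaling to summed RPKM gave a median of 0.67 for TG Aire-/- against TG Aire+/- and 1 member higher in TG Aire+/- against Aire-/-, and median-ratio scaling gave 0.88 for TG Aire-/- against Aire-/-. Of all CD8+ T cell genes past 1, the share higher in TG Aire-/- was 47.6% and 55.8% as reported, 32.9% and 47.4% with summed RPKM, 40.6% and 43.4% with the median ratio and 35.9% and 40% without the length trend. For all thymus genes, 1 was called higher and 56 lower in TG Aire-/- against TG Aire+/- without the filter and 50 lower without TG Aire-/- replicate 1, in place of 0, and TG Aire+/- against Aire-/- gave 40 higher and 1 lower without the filter.

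Leaving out each library in turn, members that rose in untreated TG Aire-/- liver ranged from 0 to 3 and the median from -0.56 to 0.30. After depletion the members that fell ranged from 0 to 6 and the median from -0.74 to 0.028. The lowest counts came without untreated TG Aire-/- replicate 1. In thymus the median ranged from -0.19 to 0.40 against Aire-/- for TG Aire-/- and from -0.12 to 0.51 for TG Aire+/-, the highest without Aire-/- replicate 1. In depleted against Aire+/+ liver, where no alternative gave a call, Cox6b2 ranged from -0.51 to 0.049 and Cox7a1 from -0.39 to 0.32, above 0 without depleted replicate 1 (0.049 and 0.10) and, for Cox7a1, without Aire+/+ replicate 1 (0.32), with a pseudocount of 0.1 (0.0056) and with the length trend removed (0.17). With a library left out, a lone liver sample is assumed to vary like the other groups. Thymus Cox6b2 ranged from -0.74 to 0.37 in TG Aire-/- against TG Aire+/-.

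The labels state no pairing, same-numbered livers correlated at 0.29, -0.09 and -0.15 in their deviations from the group means, and in thymus samples did not all correlate best with their own number. With the replicate number as a block, 3 members rose in untreated TG Aire-/- liver and 5 fell after depletion (Ndufv3 lost its call), and none in thymus, beside 3700 higher and 641 lower and 534 higher and 3893 lower of all genes. With crossed numbers, an added alternative, 6 members fell after depletion, beside 466 higher and 3160 lower of all genes. RPKM limits what depth can show, since levels under the floor of 3 reads cannot be told from 0.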
